A study of Mus musculus with 24 samples.

Results

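Skint3 and 7 T cell genes were followed through mouse skin after dihydrotestosterone injection and topical treatment with an extract of Hanlianxiang (HLX), a traditional Chinese medicine formula. The 8 genes, of 18892 in the expression table, were taken by symbol: Skint3, Cd3d, Cd3e, Cd3g, Cd247, Lck, Zap70 and Il2rb. They were chosen by their FPKM values in the 6 groups, so those values are given as a description and without a test. Poly(A) RNA of mouse skin was sequenced in 24 libraries, 4 in each group. In treatment mice dihydrotestosterone, an androgen, was injected daily and HLX extract was put on the skin. Model mice had the same injections with solvent on the skin, and control mice had saline injections with solvent on the skin. Each of these was sampled at day 15 and at day 10. Strain, sex and age of the mice, and whether a library held 1 mouse or a pool, were not given in the sources used here. Each library was whole skin, so fewer cells of a type and less RNA per cell cannot be told apart in any value below.

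A T cell receptor reaches the cell surface only with the CD3 chains. Cd3d, Cd3e and Cd3g encode the delta, epsilon and gamma chains and Cd247 the zeta chain, whose cytoplasmic tails carry the activation motifs. Lck is the kinase that phosphorylates those motifs, and Zap70 the kinase that then docks on them. Il2rb encodes the beta chain shared by the receptors for interleukin-2 and interleukin-15. In mouse epidermis most T cells are dendritic epidermal T cells with an invariant gamma-delta receptor. Skint1, the founding gene of the Skint family of butyrophilin-like proteins made by keratinocytes and thymic epithelium, is required in mice for these cells to be selected. Skint3 is a paralog of it, and together with Skint9 it has been linked in mice to the response of dendritic epidermal T cells to wounds.

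The RefSeq gene table places 11 Skint genes in a row on chromosome 4, in the order Skint8, Skint7, Skint1, Skint4, Skint3, Skint9, Skint2, Skint10, Skint6, Skint5 and Skint11. The 250 bases before the annotated start were available for 7 of the 8 genes (RefSeq, build GRCm38.p6, which differs from the build of the expression values). In local alignments, the window of Skint3 shared its longest stretch with Skint4, 196 aligned positions of which 154 were identical (78.6%, 7 gap positions). The window of Skint6 shared 95 aligned positions with that of Skint3 (80.0% identical). The Skint4 window is shown for that longest stretch, and the Skint6 window for the profile most like Skint3 among Skint genes (Pearson r = 0.92). Skint5, whose window is not shown, and Skint10, with 13 aligned positions, had r of 0.90 and 0.86 with Skint3. For Skint4 r was 0.86. Capitals mark the aligned stretch, for Skint3 the one shared with Skint4 (chr4:112231995-112232244, plus strand; Skint4 chr4:112081220-112081469, plus strand; Skint6 chr4:113286974-113287223, minus strand).
Skint3: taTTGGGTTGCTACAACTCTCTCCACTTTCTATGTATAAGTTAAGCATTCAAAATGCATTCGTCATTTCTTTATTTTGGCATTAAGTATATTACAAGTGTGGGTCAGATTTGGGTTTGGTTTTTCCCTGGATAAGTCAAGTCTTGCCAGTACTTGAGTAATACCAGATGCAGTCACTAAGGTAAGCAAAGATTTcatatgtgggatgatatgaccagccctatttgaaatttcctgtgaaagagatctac
Skint4: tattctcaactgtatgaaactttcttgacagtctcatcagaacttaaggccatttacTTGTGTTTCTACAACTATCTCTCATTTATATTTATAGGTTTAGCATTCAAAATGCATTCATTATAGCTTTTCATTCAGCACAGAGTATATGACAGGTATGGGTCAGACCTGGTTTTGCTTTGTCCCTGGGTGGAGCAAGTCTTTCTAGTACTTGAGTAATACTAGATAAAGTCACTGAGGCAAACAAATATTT
Skint6: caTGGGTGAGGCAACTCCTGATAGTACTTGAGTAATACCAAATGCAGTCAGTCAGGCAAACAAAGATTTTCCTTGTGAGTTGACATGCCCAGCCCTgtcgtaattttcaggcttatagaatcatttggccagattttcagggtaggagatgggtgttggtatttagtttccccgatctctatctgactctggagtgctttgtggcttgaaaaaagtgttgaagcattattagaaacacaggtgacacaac
Skint2, Skint5 and Skint1 also aligned, over 80, 88 and 106 positions with 80.0%, 79.5% and 67.9% identity, and in the other 5 windows the best match was at most 19 positions long.

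Cd3g, Cd3d and Cd3e are neighbours on chromosome 9. With group means subtracted, r among their transcripts was 0.70 to 0.74. Over all pairs of the T cell genes, most of them on other chromosomes, it was 0.34 to 0.86. The windows before Cd3d and Cd3e are shown as the examples from the T cell genes (Cd3d chr9:44981536-44981785, plus strand, and Cd3e chr9:45009612-45009861, minus strand). Capitals mark AGGAAG, a form of the site bound by ETS factors, in either orientation. Other forms of that site were not searched.
Cd3d: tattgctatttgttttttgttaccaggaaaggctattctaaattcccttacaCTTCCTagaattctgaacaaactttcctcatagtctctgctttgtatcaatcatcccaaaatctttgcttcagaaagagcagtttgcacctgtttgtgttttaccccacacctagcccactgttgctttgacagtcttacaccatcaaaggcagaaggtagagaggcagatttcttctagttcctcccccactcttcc
Cd3e: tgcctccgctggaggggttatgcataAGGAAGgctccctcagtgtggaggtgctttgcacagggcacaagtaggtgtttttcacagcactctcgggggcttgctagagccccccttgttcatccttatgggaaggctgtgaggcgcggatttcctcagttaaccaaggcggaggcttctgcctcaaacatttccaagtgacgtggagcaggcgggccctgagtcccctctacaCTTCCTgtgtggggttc
AGGAAG occurred in at least 1 window of Cd3d, Cd3e, Cd247, Lck and Zap70, and was not in the windows of Cd3g and Skint3. It was present in 29.5% of all 32851 windows of this length. That share is per window, while Lck had 2 windows and Zap70 had 3. The RUNX core TGTGGT occurred before Lck and Zap70 and in 14.0% of all windows. The AP-1 site TGANTCA and the TATA box TATAAA, in 6.75% and 12.4% of all windows, were not in the windows of these genes. All motifs were searched on both strands, no match of one overlapped that of another, and a match is a run of letters, not a site shown to be bound.

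Levels are the deposited FPKM, a read measure corrected for gene length and library depth, so that different genes can be compared per length. Skint3 had the highest level of the 8 genes, with a median of 7.12 FPKM over the 24 libraries and a range of 1.48 to 11.2 FPKM. Among T cell genes the median level was 4.01 FPKM for Cd3g, 1.52 for Lck, 1.24 for Cd3e, 1.02 for Il2rb, 0.88 for Cd3d, 0.37 for Cd247 and 0.25 for Zap70. The zeta chain and Zap70 thus lay lowest per length. Behind these levels were 217 to 1639 reads per library for Skint3, but 13 to 102 for Cd3d, 10 to 148 for Zap70 and 39 to 1232 for Il2rb. Cd247 stayed under 1 FPKM in all libraries and Zap70 reached it in 2, so neither passed the filter of 1 FPKM in 4 libraries that 6 of the 8 genes passed.

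Some libraries stood apart. The summed level of the Y-linked genes Ddx3y, Eif2s3y, Kdm5d and Uty was 22.3, 22.3 and 33.4 FPKM in treatment replicates 1, 2 and 4 of day 15 and 28.3 FPKM in treatment replicate 3 of day 10, against 39.2 to 50.6 FPKM in the other 20 libraries. The kidney transcripts Kap and Umod summed to 15.3 to 22.2 FPKM in model and 21.7 to 25.7 FPKM in control skin of day 10. They were listed at 0 in all treatment libraries and in all libraries of day 15. Treatment minus model and minus control at day 10, and day 15 minus day 10 in model and control skin, split along these transcripts. Their part in those differences was not tested. Model replicate 3 of day 15 had 1569 FPKM of S100a9, a neutrophil calcium-binding protein, against 36.9 to 140 FPKM in the other 3 model libraries of that day. Correlations between libraries of a group, taken across genes, were lowest in the treatment (0.928) and the model group (0.943) of day 15. Skin was recognisable in every library, with a summed level of 1287 to 3566 FPKM for 15 keratinocyte genes and 5575 to 17140 FPKM for 16 hair shaft and matrix genes.

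**Figure D1:**
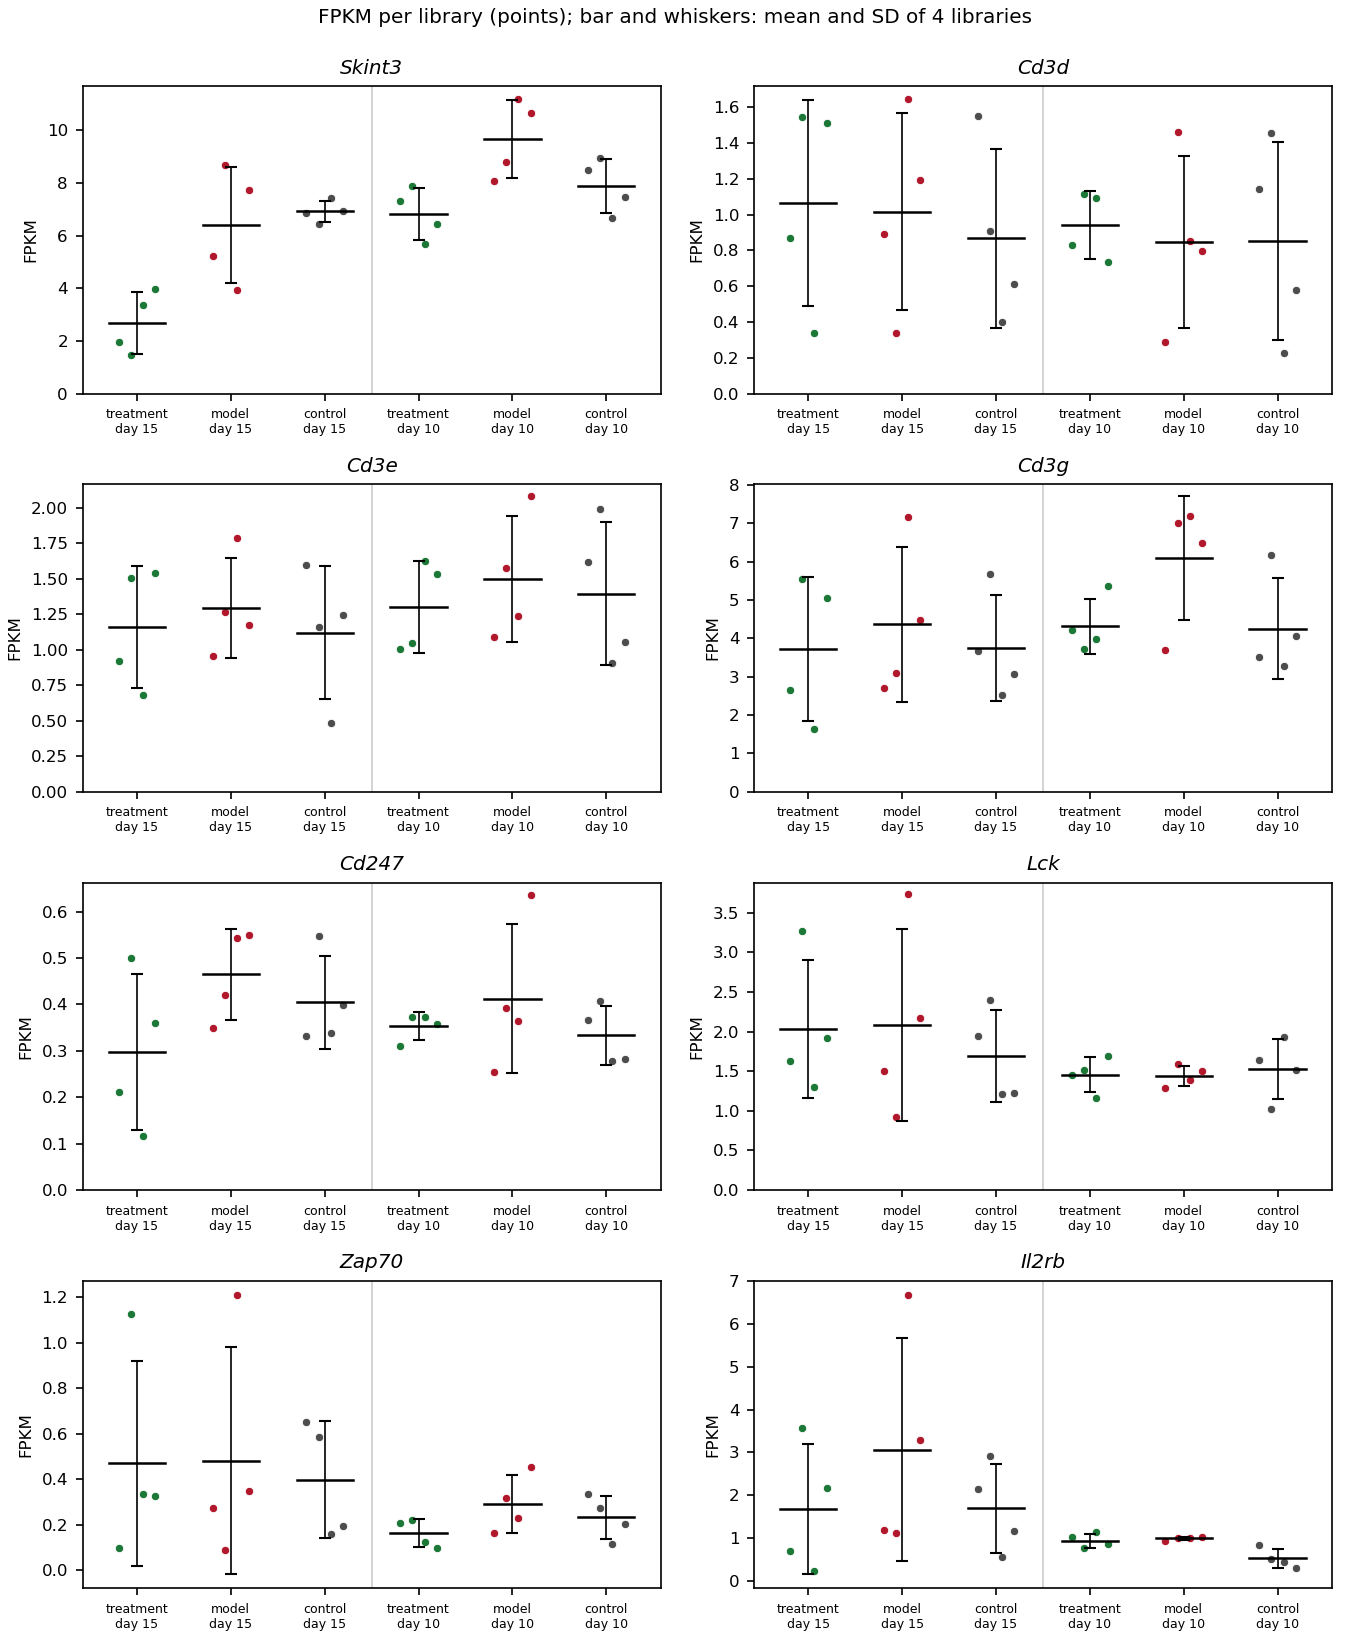
FPKM of the 8 genes in each library (points, 4 libraries a group), with the group mean (bar) and SD (whiskers). Shown are treatment, model and control skin of day 15 (left) and day 10 (right). Skint3 was lowest in treatment skin of day 15 (1.48 to 3.96 FPKM), and Il2rb was widest spread in model skin of day 15 (1.12 to 6.68 FPKM).

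Skint3 was lowest in treatment skin of day 15. There it had 1.95, 1.48, 3.36 and 3.96 FPKM, against 5.23, 8.67, 3.93 and 7.74 FPKM in model skin and 6.87, 6.46, 7.43 and 6.94 FPKM in control skin. The highest treatment library lay just above the lowest model library, while treatment and control libraries did not overlap (4.0% of all genes were lower without overlap in treatment than control skin of that day). At day 10 Skint3 had 7.30, 7.89, 5.66 and 6.44 FPKM in treatment skin, 8.08, 8.80, 11.2 and 10.6 FPKM in model skin and 8.50, 8.96, 6.66 and 7.45 FPKM in control skin. All treatment libraries of day 10 were below all model libraries, as were 6.24% of all genes, and both overlapped the control libraries.

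The group means of Skint3 ran in the order model day 10 (9.68 ± 1.48 FPKM, SD, n = 4 in every group), control day 10 (7.89 ± 1.04), control day 15 (6.93 ± 0.40), treatment day 10 (6.82 ± 0.98), model day 15 (6.39 ± 2.20) and treatment day 15 (2.69 ± 1.17). Each neighbouring pair in that order had overlapping libraries. The mean of treatment skin of day 15 was 0.42 times that of model skin and 0.39 times that of control skin.

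**Figure D2:**
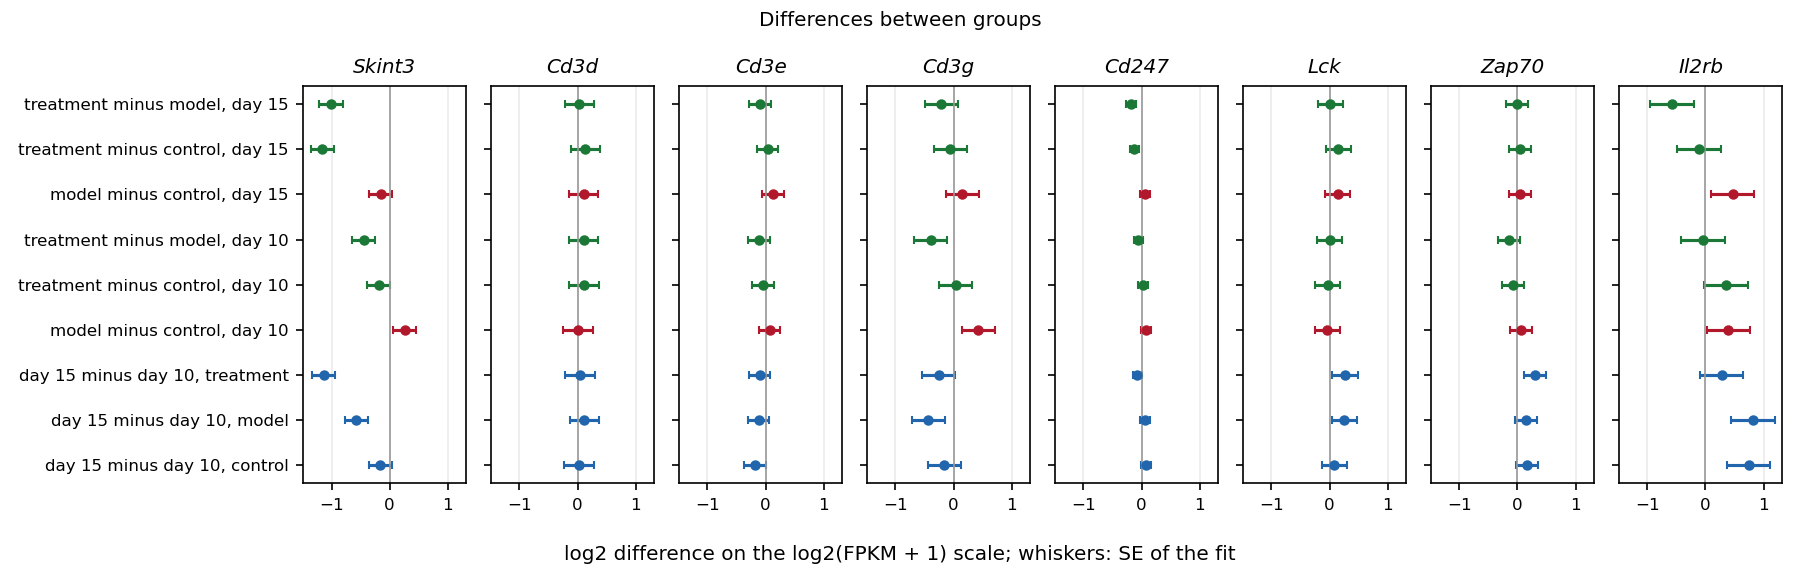
Fitted log2 differences on the log2(FPKM + 1) scale (points) with the SE of the fit (whiskers) for the 8 genes in 9 comparisons between groups. The differences of Skint3 that involve treatment skin of day 15 lie between -1.16 and -1.01, and those of the 7 T cell genes between -0.58 and 0.30 in the same comparisons.

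In limma fits of log2(FPKM + 1) over all libraries, the log2 difference of Skint3 was -1.01 (SE 0.20) for treatment minus model and -1.16 (SE 0.20) for treatment minus control at day 15. At day 10 these differences were -0.45 and -0.19 with the same SE. Between days, day 15 minus day 10, Skint3 differed by -1.13 in treatment, -0.57 in model and -0.16 in control skin. Model minus control was -0.15 at day 15, where it was 0.03 without model replicate 3, and 0.26 at day 10. Comparisons that share a group share its libraries.

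The size of the Skint3 difference depended on the libraries kept. Treatment replicates 1 and 2 of day 15, which had the lowest Skint3 levels, also had the lowest Y-linked sums. Replicate 4 had a Y-linked sum of 33.4 FPKM with 3.96 FPKM of Skint3, and replicate 3 had 48.2 FPKM with 3.36 FPKM. Leaving out replicates 1 and 2, the lowest of their group, could only make the differences smaller in size. Without these 2, treatment minus model at day 15 was -0.62, treatment minus control -0.77, and day 15 minus day 10 in treatment skin -0.74. Without all 4 libraries of low Y-linked sum these differences were -0.71, -0.86 and -0.91, where treatment skin of day 15 is replicate 3 alone. Treatment replicate 3 of day 10, with a Y-linked sum of 28.3 FPKM, had the lowest Skint3 level of its group, 5.66 FPKM. Over the 24 libraries r of Skint3 with the mean log2(FPKM + 1) of the Y-linked genes was 0.75. With group means subtracted it was 0.50. The part of the Y-linked difference in the level of Skint3 was not tested.

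Genes of the hair shaft and matrix were higher in the same comparison. For these and all other genes apart from the 8, a call means a limma p-value under 0.05 after adjustment over the 13039 genes tested. In treatment minus model skin of day 15 all 16 hair shaft and matrix genes rose, as did 1348 of the 13039 genes tested. Krt85, Krt71, Krt35 and Krt25, hair follicle keratins with the smallest p-values, had log2 differences of 0.88, 0.80, 0.78 and 0.74 (adjusted p = 0.0038, 0.00511, 0.00515 and 0.00545). These 4 were called without any 1 library, but had adjusted p = 0.134 in a fit of treatment and model skin of day 15 alone. Of the other hair genes, Tchh was lost with 6 of the 8 single libraries and Krt81 with 5 (adjusted p up to 0.14). The summed level of the 16 genes was 13920 to 17140 FPKM in treatment, 6710 to 11680 FPKM in model and 12060 to 15280 FPKM in control skin of that day. Of 15 keratinocyte genes 1, the adhesion gene Cdh1, rose (log2 difference 0.39, adjusted p = 0.0431) and none fell. Cdh1 was not called without model replicate 2 or 3 or treatment replicate 1, 3 or 4 (adjusted p up to 0.151). The keratinocyte sum was 1833 to 2511 FPKM in treatment, 1287 to 2222 FPKM in model and 2433 to 2706 FPKM in control skin. The part of either in the level of Skint3 was not tested.

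Other Skint genes were called lower at day 15 than at day 10 in model and in treatment skin, and their median was also lower in control skin. Of 10 such genes 7 could be tested, and in model skin all 7 fell, with a median log2 difference of -0.74 against -0.08 over all genes tested. Of all genes 6.85% fell in that comparison. Skint4 had 1.52 ± 0.36 FPKM in model skin of day 15 and 3.16 ± 0.60 FPKM in model skin of day 10 (log2 difference -0.72, SE 0.13, adjusted p = 0.00365). Skint9 had 7.71 ± 2.71 and 17.4 ± 3.31 FPKM in the same groups (-1.13, SE 0.24, adjusted p = 0.00996). Skint1, the gene that gave the family its name, and Skint10 differed by -0.82 and -0.74 (adjusted p = 0.0205 and 0.0248). Skint1, Skint10, Skint11, Skint5 and Skint6 were not called without model replicate 3 of day 15 or without 1 of model replicates 3 and 4 of day 10 (adjusted p up to 0.216 over single libraries left out), and Skint10, Skint11, Skint5 and Skint6 not without model replicate 2 of day 10. Skint5 and Skint6 were not called without model replicate 1 of day 15 either. In a fit of the model libraries alone none of the 7 was called (adjusted p = 0.127 for Skint4 and 0.149 for Skint9). With median-of-ratios scaling Skint4, Skint9 and Skint1 were called and Skint10, Skint11, Skint5 and Skint6 were not (adjusted p = 0.0551 to 0.0883). Under that scaling the median over all genes of this comparison was 0.02 in place of -0.08, and 271 genes were called higher and 230 lower, against 211 and 893 as reported.

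Some keratinocyte genes fell in the same comparison. Of 15 tested 6 fell in model skin between days, Flg, Krt1, Krt10, Krt15, Krt2 and Lor, all of them lost without model replicate 3 of day 15, and the median of the 15 was -0.33. In treatment skin 2 fell, Flg and Krt14, and in control skin 2, Flg and Krt2, with medians of -0.21 and -0.13. Of all 13039 genes tested 893, 982 and 434 fell between days in model, treatment and control skin. Krt14 was called without any 1 library, Krt2 was lost without control replicate 4 of day 15, and Flg was lost with 5 of the 8 single libraries in treatment skin and 6 in control skin. The keratinocyte sum was 1287 to 2222 FPKM in model skin of day 15 and 2312 to 3566 FPKM in model skin of day 10. In treatment skin it was 1833 to 2511 FPKM at day 15 and 2647 to 3136 FPKM at day 10, also without overlap. The part of keratinocytes in the levels of the Skint genes was not tested.

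In treatment skin 5 of the 7 Skint genes fell between days, with a median log2 difference of -0.73 against -0.06 over all genes, of which 7.53% fell. Skint4 had 1.03 ± 0.31 FPKM in treatment skin of day 15 and 2.30 ± 0.47 FPKM in treatment skin of day 10 (log2 difference -0.71, SE 0.13, adjusted p = 0.00376). Skint11 differed by -1.07 (SE 0.21, adjusted p = 0.00598), Skint1 by -0.78 and Skint6 by -0.73 (adjusted p = 0.0204 and 0.0335). Skint9 was the fifth, and was not called with median-of-ratios scaling (adjusted p = 0.0521). Without treatment replicates 1 and 2 of day 15 together, Skint4, Skint11, Skint1, Skint6 and Skint9 were not called (adjusted p = 0.0555 for Skint4 and 0.0584 for Skint11). Skint1, Skint6 and Skint9 were not called either without 1 of treatment replicates 1 and 2 of day 15 or 2 and 4 of day 10, Skint6 and Skint9 without replicate 1 of day 10, and Skint9 without replicate 3 of either day (adjusted p up to 0.142). In control skin limma called none of the 7 between days (5 at unadjusted p under 0.05, voom 0). Their median there was -0.42, against -0.07 over all genes. For the change between days in model minus that in control skin, limma also called none (0 at unadjusted p under 0.05, median -0.36).

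Few calls were made for the other Skint genes between treatments at one day. In treatment minus model skin of day 15 the 7 log2 differences ran from -0.59 for Skint11 (adjusted p = 0.0548) to -0.02 for Skint1, and limma called none (5 at unadjusted p under 0.05, voom 0). In treatment minus control skin of that day Skint4 fell (-0.78, SE 0.13, adjusted p = 0.0118), where 1.03 ± 0.31 FPKM stood against 2.45 ± 0.15 FPKM, and the median of the 7 was -0.51 (6 at unadjusted p under 0.05). Of all genes 0.284% fell there, and the 41 calls over all genes became 0 without treatment replicate 1 and 2665 without treatment replicate 3. This call was lost when treatment replicate 1 or 2 or control replicate 1 or 4 was left out (adjusted p up to 0.0876), and adjusted p was up to 0.727 over all alternatives. Skint4 also fell in model minus control skin of day 15 (-0.46, SE 0.13, adjusted p = 0.0265), but not without model replicate 3 or control replicate 2, 3 or 4 (adjusted p up to 0.0966). Reads can be shared between Skint paralogs, so how the counts divide among them is uncertain.

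**Figure D3:**
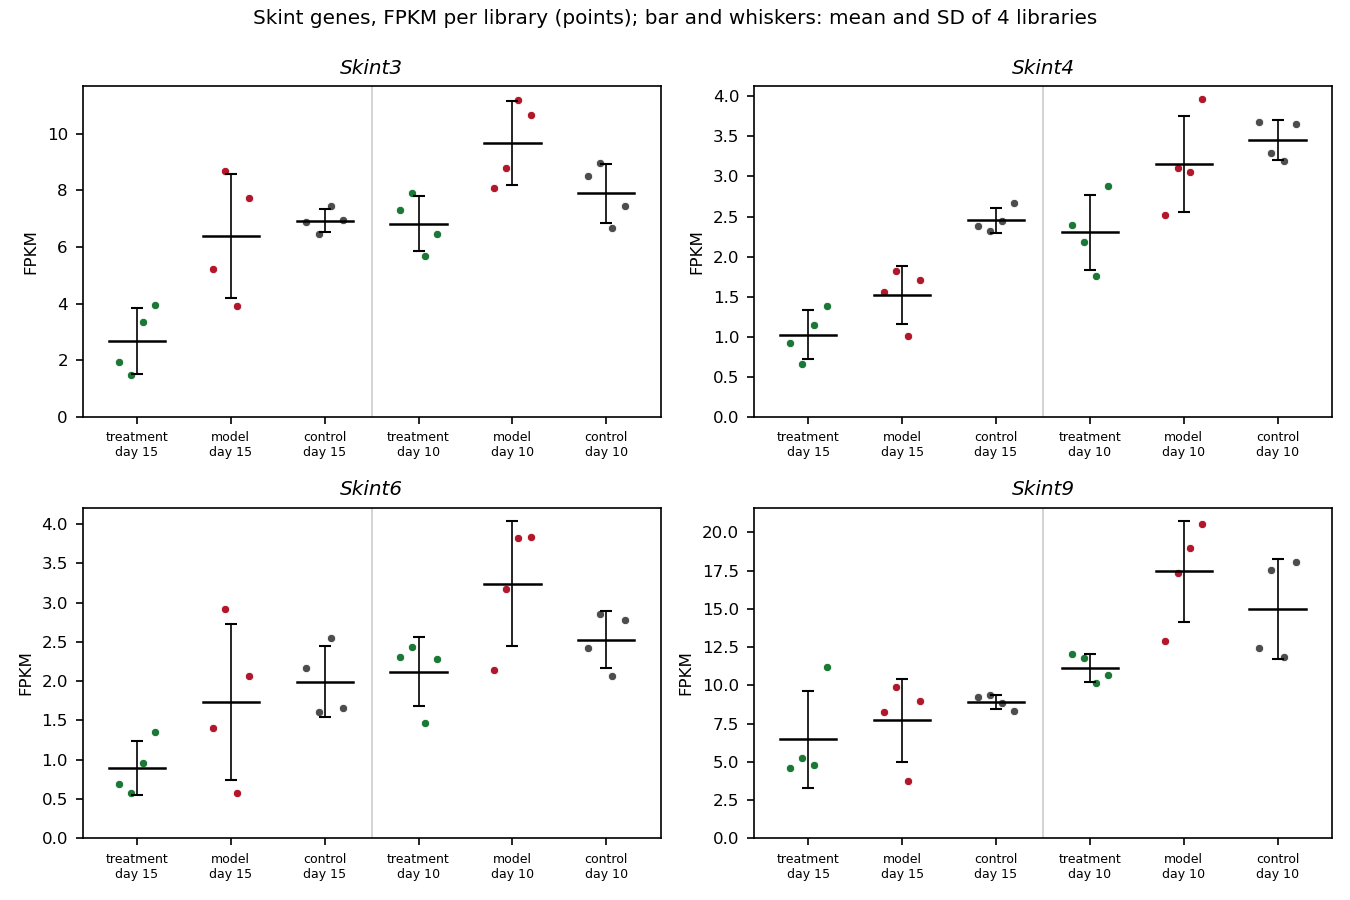
FPKM of Skint3, Skint4, Skint6 and Skint9 in each library (points, 4 libraries a group), with the group mean (bar) and SD (whiskers). In all 4 genes the mean of day 15 is below that of day 10 in treatment, model and control skin, and for Skint4 the libraries of treatment and control skin of day 15 do not overlap.

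Genes with the most similar profile were sought by Pearson correlation of log2(FPKM + 1) over the 24 libraries, which share the group differences and the depth. For Skint3 these were Mfsd14b (r = 0.95), Skint6 (0.92), Itprid2 (0.92), Rora (0.91) and Htatsf1 (0.91). With the group means subtracted they were Rora (0.93), which encodes a nuclear receptor, Skint6 (0.87), Map4k5 (0.86), Bet1 (0.86) and Aspn (0.85). With the other Skint genes r of Skint3 ran from 0.45 for Skint2 to 0.92 for Skint6. Within groups it ran from 0.42 for Skint8 to 0.87 for Skint6. With the mean of the keratinocyte genes r of Skint3 was 0.59, and 0.54 within groups. With that of the hair shaft and matrix genes it was -0.52, and -0.30 within groups. With the T cell genes r of Skint3 within groups was between -0.58 for Lck and -0.09 for Cd247. Over all libraries it was -0.51 for Lck, -0.39 for Zap70, -0.31 for Il2rb and -0.21 for Cd3d, but 0.15 for Cd3e, 0.24 for Cd3g and 0.22 for Cd247.

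**Figure D4:**
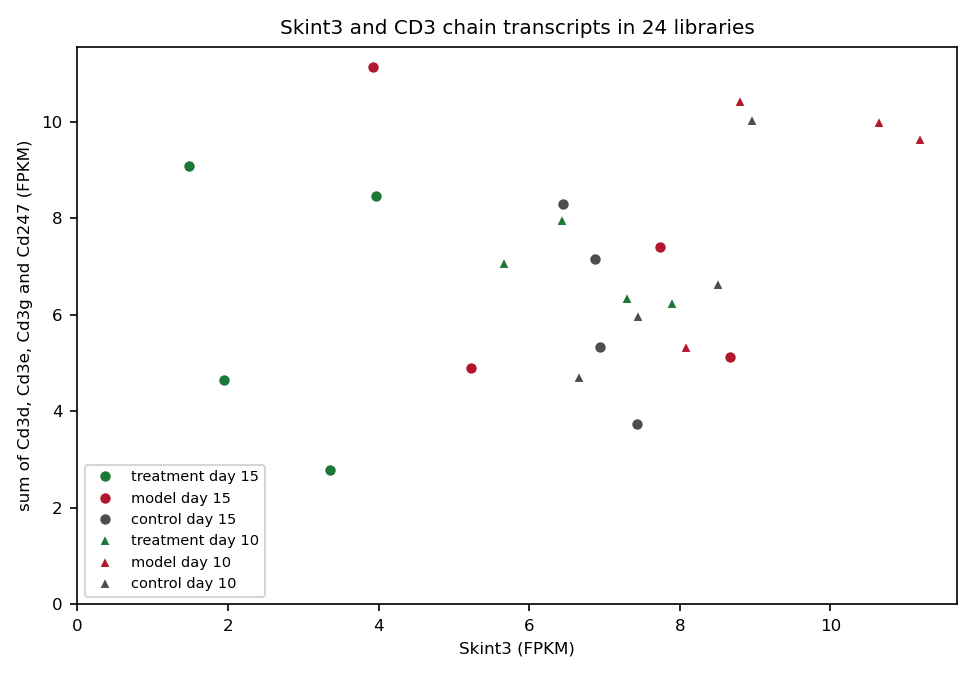
Skint3 (x axis, FPKM) against the sum of Cd3d, Cd3e, Cd3g and Cd247 (y axis, FPKM) in 24 libraries, coloured by treatment, circles for day 15 and triangles for day 10. The 4 treatment libraries of day 15 lie at the left, between 1.48 and 3.96 FPKM of Skint3, and spread over much of the range of the CD3 sum.

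The libraries of the CD3 chains overlapped in all 9 comparisons. Cd3g had 2.65, 5.54, 1.64 and 5.05 FPKM in treatment, 2.71, 3.10, 7.16 and 4.48 FPKM in model and 3.68, 5.68, 2.51 and 3.08 FPKM in control skin of day 15. At day 10 it had 4.20, 3.72, 3.97 and 5.35 FPKM in treatment, 3.70, 6.99, 7.19 and 6.48 FPKM in model and 3.50, 6.17, 3.28 and 4.05 FPKM in control skin. Model skin of day 10 held 3 of the 5 highest levels, and its other library lay inside the other groups. The log2 difference of Cd3g for model minus control at day 10 was 0.43 (SE 0.28), the largest of any CD3 chain there, and -0.39 for treatment minus model.

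Cd3d and Cd3e varied within groups more than between them. Cd3d averaged 1.07 ± 0.58, 1.02 ± 0.55 and 0.87 ± 0.50 FPKM in treatment, model and control skin of day 15 and 0.94 ± 0.19, 0.85 ± 0.48 and 0.85 ± 0.55 FPKM in the same order at day 10 (SD, n = 4). The lowest and the highest library of Cd3d were 0.23 FPKM in control skin of day 10 and 1.65 FPKM in model skin of day 15. Cd3e averaged 1.16 ± 0.43, 1.30 ± 0.35 and 1.12 ± 0.47 FPKM in treatment, model and control skin of day 15 and 1.30 ± 0.32, 1.5 ± 0.44 and 1.39 ± 0.50 FPKM at day 10. Over the 9 comparisons the log2 differences of Cd3d were between 0.01 and 0.14 (SE 0.26) and those of Cd3e between -0.18 and 0.13 (SE 0.18).

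Cd247, whose zeta chain carries the most activation motifs of the complex, averaged 0.30 ± 0.17, 0.47 ± 0.10 and 0.40 ± 0.10 FPKM in treatment, model and control skin of day 15. At day 10 it averaged 0.35 ± 0.03, 0.41 ± 0.16 and 0.33 ± 0.06 FPKM in treatment, model and control skin. Fitted without the filter, its log2 difference for treatment minus model at day 15 was -0.18 (SE 0.08), on a scale where a pseudocount of 1 shrinks differences at such low levels. The libraries of these groups overlapped.

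Both kinases spread more widely at day 15 than at day 10. Lck had 1.63, 3.27, 1.30 and 1.92 FPKM in treatment, 1.5, 0.92, 3.74 and 2.17 FPKM in model and 1.94, 2.40, 1.21 and 1.23 FPKM in control skin of day 15. At day 10 the 12 libraries lay between 1.03 and 1.94 FPKM, both in control skin. Zap70 had 0.10, 1.13, 0.33 and 0.32 FPKM in treatment, 0.27, 0.09, 1.21 and 0.35 FPKM in model and 0.65, 0.59, 0.16 and 0.19 FPKM in control skin of day 15, and 0.10 to 0.45 FPKM at day 10. Both kinases were highest in model replicate 3 and treatment replicate 2 of day 15. The log2 differences of Lck were between -0.04 and 0.27 (SE 0.22) and those of Zap70 between -0.15 and 0.30 (SE 0.19) over the 9 comparisons.

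Il2rb was the T cell gene with the widest spread. At day 15 it had 0.70, 3.58, 0.23 and 2.17 FPKM in treatment, 1.18, 1.12, 6.68 and 3.28 FPKM in model and 2.15, 2.91, 0.56 and 1.17 FPKM in control skin. At day 10 it had 1.02, 0.77, 1.13 and 0.85 FPKM in treatment, 0.94, 1.01, 1.0 and 1.03 FPKM in model and 0.84, 0.52, 0.44 and 0.31 FPKM in control skin. The groups of day 15 overlapped throughout, while at day 10 all model libraries were above all control libraries, and all model libraries of day 15 were above those of day 10. Over all genes 12.5% were higher without overlap in model than control skin of day 10, and 2.65% in model skin of day 15 than of day 10.

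Group means of Il2rb ran in the order model day 15 (3.07 ± 2.61 FPKM), control day 15 (1.70 ± 1.04), treatment day 15 (1.67 ± 1.52), model day 10 (1.0 ± 0.04), treatment day 10 (0.94 ± 0.16) and control day 10 (0.53 ± 0.23), and each neighbouring pair overlapped. The log2 difference of Il2rb was -0.58 for treatment minus model and 0.47 for model minus control at day 15, and 0.39 for model minus control at day 10 (SE 0.38). Day 15 minus day 10 was 0.82 in model, 0.74 in control and 0.28 in treatment skin.

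Across the 7 T cell genes the median log2 difference, on the log2(FPKM + 1) scale and with all libraries, was between -0.10, in treatment minus model at day 15, and 0.13, in model minus control at day 15. The same median over all genes tested was -0.02 and -0.03 there. In model minus control at day 15 all 7 were above 0, from 0.05 for Zap70 to 0.47 for Il2rb, but the median was -0.04 without model replicate 3 and 0.26 without model replicate 2. In treatment minus model at day 15, 2 of the 7 lay above 0 and 5 below, and the median was 0.03 without treatment replicate 3 and -0.19 without treatment replicate 2. Between days in model skin the median of 0.12 was -0.03 without model replicate 3 of day 15 and 0.28 without model replicate 2. Over single libraries left out, medians of treatment minus control ran from -0.05 to 0.07 at day 10 and -0.15 to 0.19 at day 15. Between days in treatment skin the median ran from -0.07 to 0.24. The direction of all these medians turned with 1 library. The scale also moved them: in model minus control at day 10 the median was 0.07, against 0.20 with a pseudocount of 0.1 and 0.23 with voom on recovered reads, and between days in model skin it was 0.28 with voom. Without the 4 libraries of low Y-linked sum, the median of treatment minus model at day 15 was -0.44, that of treatment minus control at day 15 was -0.33 and that between days in treatment skin -0.38. The treatment library of day 15 left in that fit, replicate 3, had the lowest level of its group for Cd3d, Cd3e, Cd3g, Cd247, Lck and Il2rb.

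The 7 genes varied together from library to library. With group means subtracted, r over the 24 libraries was between 0.34 (Cd3e and Lck) and 0.86 (Lck and Il2rb) for the 21 pairs. The genes most like their mean within groups were Spn, which encodes the leukocyte sialoprotein CD43 (r = 0.95), Gsdmd, the pore-forming gasdermin D (0.95), Serpinb9, a granzyme B inhibitor (0.95), Slamf7 (0.95) and Il2rg, the common gamma chain that pairs with the Il2rb product (0.94). Before group means were subtracted they were Spn (0.91), Itgal, an integrin chain of leukocytes (0.89), Parvg (0.88), Lsp1 (0.88) and Psme1 (0.88). The mean of 15 cytotoxic and NK cell genes followed the T cell mean within groups with r = 0.94, that of regulatory T cell genes with 0.94, of dendritic cell genes with 0.89, of macrophage genes with 0.84 and of B cell genes with 0.77.

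Other T cell genes were counted in 4 lists of 79 genes, none of them among the 8. The T cell receptor chains, 12 of the 79, were not analysed here. The table held 67 of the 79 genes, and 38 passed the filter. In model minus control 5 rose and 2 fell at day 10, and 6 rose and 2 fell at day 15. In treatment minus model 2 rose and 5 fell at day 15, a share of the 38 close to that of all genes. At day 10 limma called none in treatment minus model (1 at unadjusted p under 0.05, and voom none), and at day 15 none in treatment minus control (2 unadjusted, voom none). Treatment minus control at day 10 had 1 higher and 1 lower. Between days 2 fell in control, 2 rose in model, and 2 rose and 3 fell in treatment skin. The background was 13.8% of all genes in model minus control at day 10 and 10.8% at day 15, 19.7% in treatment minus model at day 15 (9.32% of all genes were lower there), 3.24% in treatment minus control at day 10, 0.192% and 0.314% where none was called, and 4.81%, 8.47% and 9.64% between days in control, model and treatment skin.

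Most of these calls were receptors and signalling partners of Il2rb. Of 16 genes of interleukin-2 and interleukin-15 signalling 13 were tested, and 6 rose and none fell in model minus control at day 15. Il15ra, the alpha chain that presents interleukin-15 to cells bearing the Il2rb product, had 4.78, 5.58, 8.68 and 6.74 FPKM in model skin of day 15, against 3.33, 2.85, 2.24 and 2.54 FPKM in control skin. All model libraries were above all control libraries (log2 difference 0.97, SE 0.17, adjusted p = 0.00409). Of all genes 7.89% were higher without overlap in that comparison. Il15, the cytokine itself, had 1.73, 2.45, 6.78 and 3.35 FPKM in model and 1.33, 1.22, 1.21 and 1.24 FPKM in control skin, again without overlap (0.91, SE 0.21, adjusted p = 0.013). Stat5b, a transcription factor downstream of the receptor, and Jak3, the kinase on the common gamma chain, rose by 0.47 and 0.66 (adjusted p = 0.01 and 0.0157). Stat5a and Jak1 also rose. Without model replicate 3, the library rich in S100a9, Jak3 was not called (adjusted p = 0.0565), and Il15ra, Il15 and Stat5b were called without any 1 library. Leaving out control replicate 2, 3 or 4 or model replicate 2 or 3, each alone, ended the calls of Stat5a and Jak1, and leaving out model replicate 4 that of Jak1 (adjusted p up to 0.155). In a fit of only these 2 groups Il15 had adjusted p = 0.0876.

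At day 10 the list had 4 genes higher and 1 lower in model than control skin. Il15ra had 3.31, 5.11, 4.94 and 5.11 FPKM in model skin and 2.33, 2.57, 1.97 and 2.12 FPKM in control skin (log2 difference 0.78, SE 0.17, adjusted p = 0.00807). Stat5b and Jak1 rose by 0.42 and 0.48 (adjusted p = 0.0125 and 0.0341), and Cish, a feedback inhibitor of this receptor, fell by 0.47 (adjusted p = 0.0323). Jak3 was the other gene that rose. Il15ra was called without any 1 library. Stat5b was not called without control replicate 3 (adjusted p = 0.0507). Leaving out control replicate 1, 3 or 4 or model replicate 2, 3 or 4, each alone, ended the calls of Cish, Jak1 and Jak3, and leaving out control replicate 2 that of Jak3 (adjusted p up to 0.114).

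Il15ra, Il15, Stat5a, Stat5b and Jak3 fell in treatment minus model skin of day 15, a comparison that shares the model libraries with the one against control. Il15ra had 2.02, 3.72, 1.80 and 3.74 FPKM in treatment skin (log2 difference -0.98, SE 0.17, adjusted p = 0.00124). These were all below the model libraries given above, and 4.79% of all genes were lower without overlap there. Il15 had 1.46, 1.5, 1.01 and 1.85 FPKM in treatment skin, where the highest library lay above the lowest of model skin (-0.79, SE 0.21, adjusted p = 0.0122). Stat5a and Stat5b fell by 0.72 and 0.37 (adjusted p = 0.01 and 0.0152), and Jak3 was the fifth gene. These 5 calls needed the spread of all 6 groups: in a fit of treatment and model skin of day 15 alone, limma called none of the 13039 genes, and Il15ra had adjusted p = 0.134. Without any 1 library Il15ra, Il15, Stat5a and Stat5b were still called. Jak3 was not called without model replicate 2, 3 or 4 or treatment replicate 1 or 3 (adjusted p up to 0.16), and Il15 not without treatment replicates 1 and 2 together (adjusted p = 0.206).

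Between days, Il15 and Il4ra, the interleukin-4 receptor alpha chain, rose in model skin by 0.70 and 1.16 (adjusted p = 0.0396 and 0.0421). Both calls ended when any 1 of the model libraries of day 10 or model replicate 3 of day 15 was left out, and that of Il15 also without replicate 4 of day 15 (adjusted p up to 0.197).

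**Figure D5:**
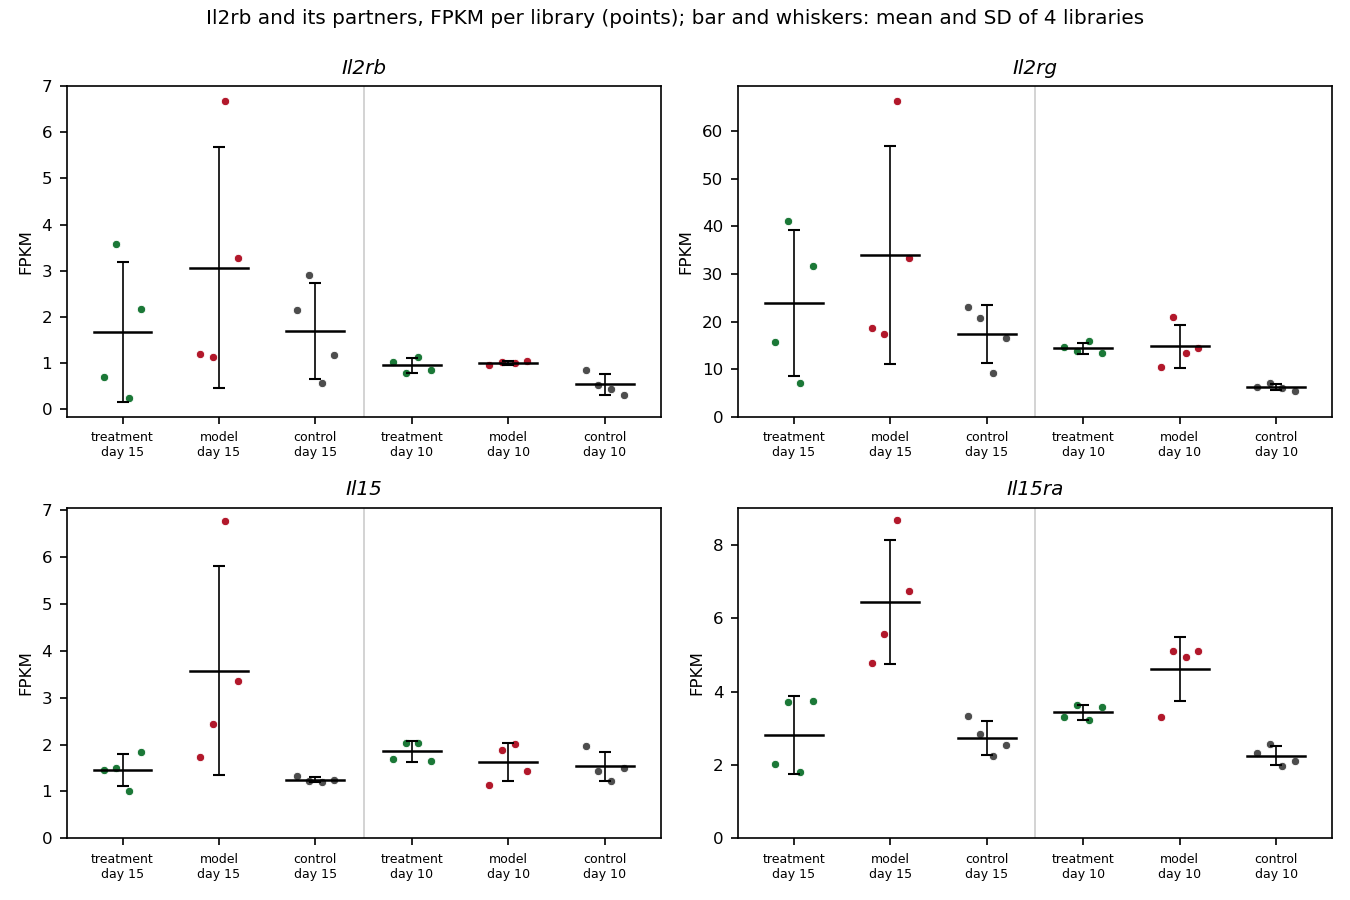
FPKM of Il2rb, Il2rg, Il15 and Il15ra in each library (points, 4 libraries a group), with the group mean (bar) and SD (whiskers). Il15ra is at 4.78 to 8.68 FPKM in model skin of day 15, above all treatment (1.80 to 3.74 FPKM) and control libraries (2.24 to 3.33 FPKM) of that day.

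Il2rg, the common gamma chain, ran with Il2rb and was not called in these comparisons. It averaged 23.9 ± 15.4 FPKM in treatment, 33.9 ± 22.8 FPKM in model and 17.4 ± 6.08 FPKM in control skin of day 15, and model replicate 3 had the highest level, 66.4 FPKM. Il2ra, the alpha chain of the high-affinity interleukin-2 receptor, averaged 0.77 ± 0.64, 1.18 ± 0.65 and 0.58 ± 0.19 FPKM in treatment, model and control skin of day 15. Il2, the other ligand, was listed at 0 in every treatment and control library of day 15 and reached at most 0.10 FPKM in model skin.

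Of 29 T cell surface and signalling genes 13 were tested and few were called. Prkcq, the protein kinase C isoform that signals below the T cell receptor, fell in model minus control by 0.52 at day 10 (adjusted p = 0.0118) and by 0.47 at day 15 (adjusted p = 0.0232). The call of day 10 held without any 1 library, and that of day 15 was lost without control replicate 2, 3 or 4 or model replicate 2 (adjusted p up to 0.0777). Fyn, a kinase related to Lck, was the other gene that fell at day 15, a call that only the fit without model replicate 1 kept among those that left out 1 library (adjusted p up to 0.134). Bcl11b, a transcription factor of T cell commitment that skin keratinocytes also express, fell between days in control (log2 difference -0.80, adjusted p = 0.0134) and treatment skin (-0.60, adjusted p = 0.0286). Without control replicate 2 of day 10 or replicate 2 or 4 of day 15 the first was lost (adjusted p up to 0.0574), and without treatment replicate 2, 3 or 4 of day 10 or replicate 1 or 3 of day 15 the second (adjusted p up to 0.0843). Cd4, the helper T cell co-receptor, averaged 2.35 ± 2.10, 2.66 ± 0.99 and 1.04 ± 0.24 FPKM in treatment, model and control skin of day 15, and Cd8a, of cytotoxic T cells, stayed under 0.50 FPKM in every library.

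Of 22 gamma-delta and epidermal T cell genes 12 were tested. Areg, which encodes amphiregulin, a growth factor made by T cells and keratinocytes, rose in treatment minus model skin of day 15 (9.84 ± 1.87 FPKM against 6.27 ± 1.2 FPKM, log2 difference 0.58, SE 0.15, adjusted p = 0.012), also without any 1 library but not in the fit of these groups alone (adjusted p = 0.151). Fcer1g, a signalling chain of innate-like lymphocytes and myeloid cells, rose in model minus control at day 10 (80.1 ± 16.0 FPKM against 32.9 ± 10.5 FPKM, log2 difference 1.29, adjusted p = 0.0349). That call ended when control replicate 1, 3 or 4 or model replicate 2, 3 or 4 was left out (adjusted p up to 0.103). Il17a, the interleukin-17A cytokine, was at most 0.25 FPKM in any library.

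Genes of other leukocytes were called in some comparisons. Of 10 cytotoxic and NK cell genes tested, Klrd1, the CD94 receptor chain, was lower in treatment than model skin of day 15. It had 1.36, 2.40, 0.97 and 2.25 FPKM against 3.21, 3.58, 9.13 and 4.66 FPKM (log2 difference -1.11, SE 0.29, adjusted p = 0.0122). Its libraries did not overlap, and 4.79% of all genes were lower without overlap there. Klrd1 rose in model minus control at day 15 (0.92, adjusted p = 0.0445). That call ended when control replicate 2, 3 or 4 or model replicate 2, 3 or 4 was left out (adjusted p up to 0.157). Gzmb, the granzyme B protease, had 3.02, 1.5, 29.6 and 12.8 FPKM in model skin of day 15 and 0.31, 0.89, 0.66 and 0.73 FPKM in model skin of day 10 (2.31, SE 0.59, adjusted p = 0.0242). Without model replicate 3 of day 15, or 2, 3 or 4 of day 10, it was not called (adjusted p up to 0.117).

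The summed level of the 14 macrophage genes was 776 to 3193 FPKM in treatment, 2187 to 4712 FPKM in model and 1089 to 2208 FPKM in control skin of day 15, and at day 10 1536 to 1937, 1676 to 2437 and 670 to 1067 FPKM in the same order. In model minus control 11 of the 14 rose at day 10 and 3 at day 15, and in treatment minus model 3 fell at day 15. In treatment minus control at day 10 7 of them rose, and 2 rose between days in control skin. Neutrophil genes, 7 tested, had 3 higher in model than control skin at day 10 and 1 at day 15, 1 lower in treatment than model skin at day 15, and 1 higher in treatment than control skin at day 10. These counts stand against the shares of all genes given for the T cell lists. In model minus control at day 10, Cd163, Cd68, Csf1r, Itgam and Lyz2 were lost with 2 to 6 single libraries left out. The other macrophage calls there held without any 1 library. At day 15 Mertk and Mrc1 were lost without control replicate 3, and Cd163 held. Csf3r, S100a9 and Il1r2, the neutrophil calls of day 10, were lost with 6 or 7 single libraries. Il1r2 was lost with 4 at day 15, and without model replicate 3 in treatment minus model. Of 9 dendritic and Langerhans cell genes Batf3 rose in model minus control at day 10 and no other was called, and Batf3 was not called without control replicate 1, 3 or 4 or model replicate 2, 3 or 4 (adjusted p up to 0.128). The B cell list, 3 genes tested, had no call by limma in any comparison (1 at unadjusted p under 0.05, between days in control skin, and voom none), and its sum stayed between 10.7 and 16.0 FPKM. Of 2 regulatory T cell genes tested, Tnfrsf18 fell between days in treatment skin (-0.52, adjusted p = 0.0254), but not without treatment replicate 2 or 4 of day 10 or replicate 1 of day 15 (adjusted p up to 0.0961). The part of these cells in the levels of the 8 genes was not tested.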

How the data were processed

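Skin RNA of the 24 libraries was prepared with TRIzol and a VAHTS Universal V6 kit, per the labels' protocols. Reads went through fastp, HISAT2 and HTSeq on GRCm39, per the submitters' processing notes, with no versions or strand setting given in the sources used here. The deposited values are FPKM for 18892 symbols, made by the authors, and were not rescaled. Whole reads were recovered from the steps of the FPKM values for 18713 of 18715 genes above 0 (within 0.01 of a read for low and 0.05 for high genes), giving 36064157 to 40402478 reads per library.

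Groups come from the sample titles. One mean per group was fitted to log2(FPKM + 1) of all 24 libraries with limma 3.58.1 in R 4.3.3 (lmFit, contrasts.fit, eBayes with trend and robust), two-sided, for 13039 genes with at least 1 FPKM in 4 libraries (5853 removed), with Benjamini-Hochberg adjustment within each comparison. Cd247 and Zap70 were fitted without the filter. The script was tested on simulated data. The genes and lists were chosen with earlier results of these data known. From each list up to 4 called genes with the smallest p were named, and others only by role or where few. A result for 1 list gene is not reported here. Promoter windows came from RefSeq and were aligned locally. Alternatives covered pseudocount, filter, scaling, weights, the replicate number, voom on recovered reads, and libraries left out.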

Additional observations from a re-analysis of the deposited data

Results flagged for a closer look

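In 120 gene and group pairs, those of the 8 genes and of 12 other genes shown by level, a library was set apart where its gap to the nearest other library of its group of 4, as a share of the range of the group, was above Dixon's 95% critical value. Chance alone marks about 1 in 20 groups, and 5 of the 120 were marked, none of them for the 8 genes. Skint9 had 11.2 FPKM in treatment replicate 4 of day 15, against 4.57 to 5.24 FPKM in the other 3 treatment libraries. Skint6 had 1.46 FPKM in treatment replicate 3 of day 10, against 2.28 to 2.44 FPKM in the others. Il15ra had 3.31 FPKM in model replicate 1 of day 10, against 4.94 to 5.11 FPKM in the others. Il2ra had 1.72 FPKM in treatment replicate 2 of day 15, against 0.35 to 0.55 FPKM in the others. Cd4 had 2.17 FPKM in treatment replicate 4 of day 10, against 1.44 to 1.51 FPKM in the others.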

How the results depend on the processing

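Counts of called T cell list genes depended on the fit, and the cause was not tested. With only the compared groups, 14 were called in model minus control at day 10, 4 at day 15, 14 in treatment minus control at day 10, none (0) in treatment minus model at day 15, and 13, 0 and 2 between days in control, model and treatment skin. Array weights gave 21 and 23 in model minus control, 2 in treatment minus model at day 10, 19 and 1 in treatment minus control at day 10 and day 15, and 17, 19 and 9 between days. In treatment minus control at day 10 the count was 1 without a filter, with median-of-ratios scaling and with a common total.

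Scaling moved the split of calls over all genes. With median-of-ratios scaling 223 were higher and 151 lower between days in control skin and 569 and 658 in treatment skin, against 193 and 434, and 275 and 982, as reported. With a common total the split was 1044 and 613 in model minus control at day 10 (885 and 918 as reported), 744 and 473 at day 15 (552 and 856), 677 and 1660 in treatment minus model at day 15 (1348 and 1215), 9 and 16 at day 10 (12 and 13), 341 and 94 in treatment minus control at day 10 (287 and 136), and 160 and 1774 between days in treatment skin.

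The deviations of same-numbered libraries had r from -0.631 to 0.509. Libraries of unlike number were not compared, so whether the number pairs libraries cannot be told. With a replicate block the count was 1 in treatment minus control at day 10 and 0 between days in model skin.

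Voom on recovered reads called 2575 genes in treatment minus model and 1443 in model minus control at day 15, and gave Skint3 a log2 difference of -1.47 for treatment minus control at day 15. Without the 4 libraries of low Y-linked sum, a choice made after the values were seen, 20 list genes were called in treatment minus model at day 15, where treatment skin is replicate 3 alone and is taken to vary like the other groups. The T cell medians were then -0.44, -0.33 and -0.38 for treatment minus model, treatment minus control and between days, and Skint3 was at -0.71 and -0.86 in treatment minus model and minus control at day 15. Without treatment replicates 1 and 2 of day 15, also chosen afterwards, Skint3 was at -0.62, -0.77 and -0.74, and 0 list genes were called between days.

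Leaving out single libraries moved the list counts to 2 to 9 and 4 to 13 in model minus control at day 10 and day 15, 5 to 11 in treatment minus model at day 15, 0 to 2 and 0 to 1 in treatment minus control at day 10 and day 15, and 0 to 3, 0 to 9 and 0 to 5 between days in control, model and treatment skin. Skint3 stayed between -1.19 and -0.84 in treatment minus model and between -1.32 and -0.99 in treatment minus control at day 15. Over all genes, leaving out single libraries gave 536 to 2405 and 363 to 2240 calls in model minus control at day 10 and day 15 (1803 and 1408 with all), 14 to 82 and 1221 to 2947 in treatment minus model (25 and 2563), 83 to 497 and 0 to 2665 in treatment minus control (423 and 41), and 99 to 828, 146 to 1522 and 425 to 2531 between days in control, model and treatment skin (627, 1104 and 1257). Of 149 called results of single list genes, 23 were called under every alternative, 126 were lost under at least 1, and none changed sign. Depth limits Zap70 and Cd3d most, at 10 and 13 reads in their lowest libraries.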
